A study of Arabidopsis thaliana with 12 samples.

Results

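For 56 genes of Arabidopsis seedlings, the fitted daily peak of transcript level lay in the early subjective day, between subjective dawn (circadian time 0, CT0) and CT4. They were selected on measured values. Each of 7996 nuclear genes, those with a named probe set and a mean intensity of at least 100 over the 12 arrays, was fitted with a 24-h cosine wave and a linear trend in time. Members had a log2 amplitude (from the mean of the fitted wave to its peak) of at least 0.25, a Pearson correlation of at least 0.7 between the first and the second cycle, and a fitted peak from CT0 to below CT4. The amplitude requirement left 477 genes, the correlation left 361 and the peak window left 59. UGT88A1, BGLU40 and UGT74D1 met all of these but belong to glycosyltransferase and beta-glucosidase families that the rule leaves out by symbol. The same rule applied to the other 4-h windows gave 87 genes at CT4 to CT8 and 68 at CT20 to CT24, so that the 56 members were 16.4% of 342 genes over all windows.

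The arrays followed 1 line of plants, wild-type Col-0 with a CCR2::LUCIFERASE reporter, a luciferase gene under the promoter of a clock-regulated gene. Seedlings were stratified for 4 d, entrained for 7 d at 22 C in 12 h of white light and 12 h of dark on medium with 3% sucrose, and then released into constant white light, the condition that all 12 samples share. Whole seedlings were harvested every 4 h from 24 to 68 h in constant light, and RNA from each harvest went to 1 Affymetrix ATH1 array, so no time has a replicate and there is no arrhythmic or dark control. CT0 is the 24 h and the 48 h harvest, 24 to 44 h are called the first cycle and 48 to 68 h the second. Each error below is therefore taken from how far the 12 arrays lay from the fitted wave, which mixes plant, RNA and array differences, and precision is limited by having 12 arrays. Values are linear intensities that the authors had already scaled. Array medians lay between 149.9 and 153.6, and log2 values of any pair of arrays correlated at 0.979 to 0.992. The array records gave 3 scan days: 24 h and 32 to 52 h on the first, 56 to 68 h on the second, and 28 h alone on the third.

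The circadian clock of plants is a set of regulators, most of them transcription factors, that act on one another in a daily order, with the MYB factors CCA1 and LHY active around dawn and TOC1 later in the day. Through them it sets the daily timing of many other genes, and genes with an early-day phase are known to include many of photosynthesis, pigment synthesis and light signaling. In constant light such timing continues without any cue from lighting, and subjective day is the part of the cycle in which plants would have been in light.

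Both cycles showed the early-day course in most members. The highest value of a cycle fell at CT0 or CT4 in both cycles in 50 of 56 members, as the choice of peak window favors. In the first cycle 41 members were highest at CT4 and 10 at CT0, whereas in the second 33 were highest at CT0 and 21 at CT4. Low points were shared more closely, with 35 members lowest at CT12 and 21 at CT16 in the first cycle and 37 and 17 in the second. Averaged over members, the log2 deviation from each gene's own mean was 0.31 at 24 h, 0.45 at 28 h, 0.07 at 32 h, -0.47 at 36 h, -0.41 at 40 h and -0.01 at 44 h. In the second cycle it was 0.31 at 48 h, 0.25 at 52 h, 0.00 at 56 h, -0.33 at 60 h, -0.24 at 64 h and 0.06 at 68 h. The group was thus high around dawn and mid-morning and low in the early and middle subjective night in both cycles. The peak window and the required correlation of the cycles favor this course, low points included, so it is a description.

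**Figure D1:**
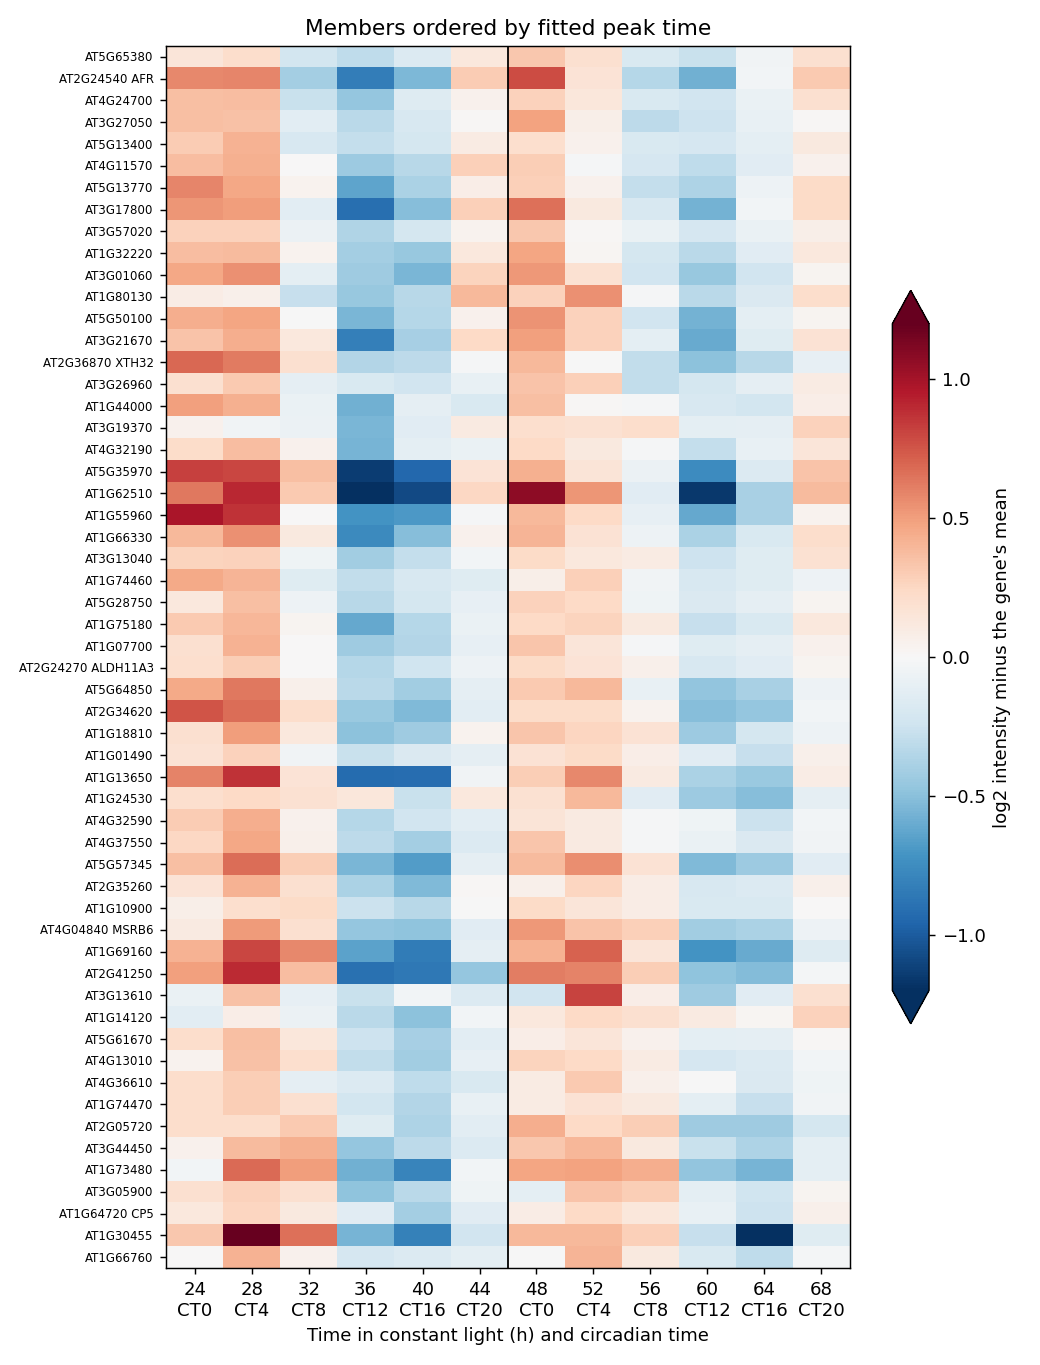
Each row is 1 of the 56 members, ordered by fitted peak time, and each column 1 array (hours in constant light and circadian time, CT). Color gives log2 intensity minus the gene's mean over 12 arrays, with the scale ending at 1.2 in either direction; the columns at 36, 40, 60 and 64 h are blue in nearly all rows and those at 24, 28, 48 and 52 h red.

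The way down was steeper than the way up in the first cycle. From 32 to 36 h the median change was -0.45 on the log2 scale, with all 56 members lower at 36 h, and 32 members had their largest drop of the series in this step. From 28 to 32 h it was -0.40, with 53 members lower, but 28 h is the array scanned alone on the third day. Return toward dawn was spread over a pair of steps, with median changes of 0.31 from 40 to 44 h (54 members higher) and 0.31 from 44 to 48 h (53 members higher). In the second cycle the corresponding changes were -0.23 from 52 to 56 h, -0.29 from 56 to 60 h and 0.27 from 64 to 68 h. All 56 members were higher at 68 h than at 64 h. Falls and rises were thus of similar size in that cycle. The peak window and the required correlation of the cycles favor such falls and rises, so the counts are a description.

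Amplitudes ran from 0.25 to 1.08 with a median of 0.35, and the median gene of the CT4 to CT8 and CT20 to CT24 windows also had 0.35. Fitted peak-to-trough ratios ran from 1.42 to 4.46 with a median of 1.61, and 15 members reached a ratio of at least 2. Standard errors of the peak times were 0.265 to 1.499 h (median 0.561 h), so neighbors in the order of fitted peaks did not differ beyond their errors. By fitted peak, 15 members lay at CT0 to CT1, 10 at CT1 to CT2, 12 at CT2 to CT3 and 19 at CT3 to CT4. These groups were split by the fitted peak that the rule used, so their mean courses are a description. Averaged over both cycles, the CT0 to CT1 group stood at 0.14 ± 0.10 (SD, n = 15 genes) at CT20 and -0.15 ± 0.09 at CT8, while the CT3 to CT4 group stood at -0.07 ± 0.09 (n = 19 genes) at CT20 and 0.20 ± 0.14 at CT8. Across members, amplitude and log2 mean intensity had a Pearson r of -0.06, given as a description over 56 genes measured on the same arrays.

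**Figure D2:**
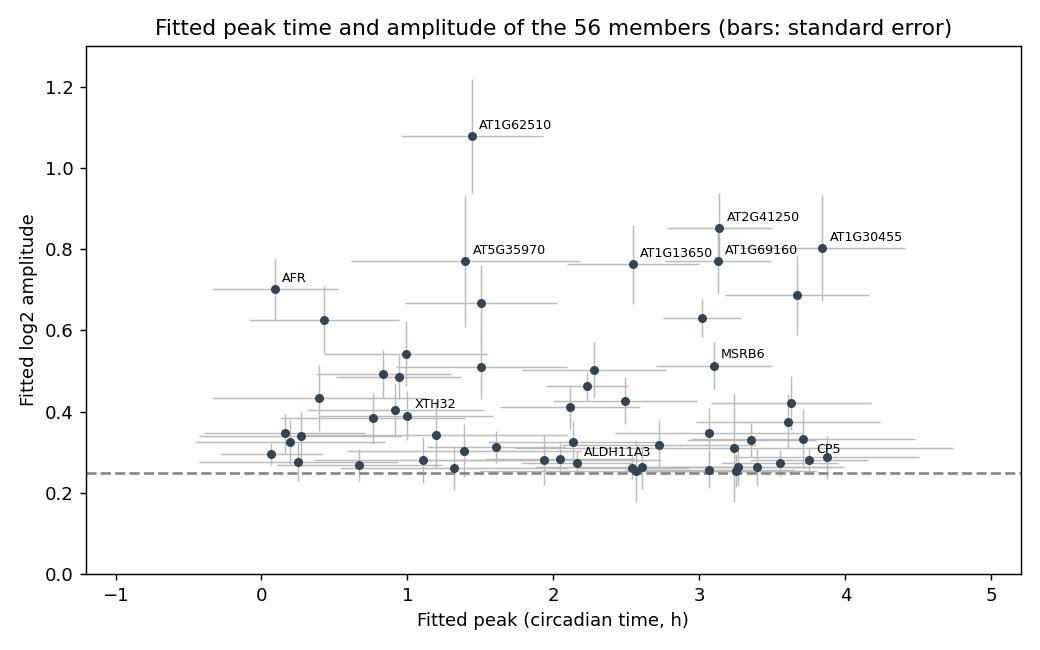
Fitted peak time (x axis, circadian time in hours) and fitted log2 amplitude (y axis) of the 56 members, with bars of 1 standard error from the scatter around the fitted wave. The dashed line is the amplitude minimum of 0.25; AT1G62510 stands highest at 1.08, and the 6 largest amplitudes all have fitted peaks at CT1.40 or later.

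Of the members, 8 carry a descriptive name or symbol in the gene table and 48 only a locus name, so the roles of most are not given here. Light signaling was represented by AFR (AT2G24540, ATTENUATED FAR-RED RESPONSE), an F-box protein that takes part in signaling from the far-red light receptor phytochrome A. AFR intensities were 491, 494, 247, 185, 226 and 407 from 24 to 44 h and 565, 368, 259, 220.2, 322 and 409.8 from 48 to 68 h. It was high at both dawns and at 28 h, and low from 32 to 40 h and again from 56 to 60 h. Its fitted peak was at CT0.0926 (SE 0.432 h), its log2 amplitude was 0.70 (SE 0.08) and the fitted ratio of peak to trough was 2.64, the largest among the members with a descriptive name or symbol.

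Geranylgeranyl reductase (AT1G74470) makes the phytyl chain that chlorophyll and tocopherols carry. Its intensities were 5542, 5866, 5451, 4099, 3758 and 4508 from 24 to 44 h and 5115, 5408, 5181, 4404, 3954 and 4658 from 48 to 68 h. Values were high from 24 to 32 h and from 48 to 56 h and lowest at 40 and 64 h, a late phase within the window (fitted peak CT3.55, SE 0.401 h) with a small log2 amplitude of 0.27 (SE 0.03). The neighboring gene on chromosome 1, AT1G74460, was also a member, and no other members are adjacent genes. Intensities of AT1G74460 were 631, 610.3, 416, 376, 403 and 418 from 24 to 44 h and 485, 563, 447, 404, 417 and 442 from 48 to 68 h. This neighbor was high at 24 and 28 h but already near its low values at 32 h, and its fitted peak was at CT1.94 (SE 0.797 h) with an amplitude of 0.28 (SE 0.06). AT1G74460, AT1G74470 and the coumarin enzyme below were singled out after their values were seen.

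AT3G21670 encodes NPF6.4, of the NRT1/PTR family whose members carry nitrate, peptides and other solutes across membranes. NPF6.4 intensities were 1374, 1472, 1189, 614, 826 and 1284 from 24 to 44 h and 1524, 1314, 998.7, 713, 979 and 1226 from 48 to 68 h. The gene was high from 44 to 52 h as well as at 24 and 28 h, with single low arrays at 36 and 60 h, and its fitted amplitude was 0.54 (SE 0.08) with a peak at CT0.989 (SE 0.558 h). Among all 7996 genes it was also the one whose 12 log2 values tracked the leading member AT1G62510 most closely (Pearson r 0.982).

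Redox and carbon metabolism contributed MSRB6 and ALDH11A3. MSRB6 (AT4G04840) is a methionine sulfoxide reductase, an enzyme that repairs oxidized methionine in proteins. MSRB6 intensities were 569.8, 756, 604, 385, 379.9 and 481 from 24 to 44 h and 759, 671, 645, 396, 408 and 508 from 48 to 68 h. Its high values extended to 56 h in the second cycle, and its amplitude was 0.51 (SE 0.06) with a peak at CT3.10 (SE 0.397 h). ALDH11A3 (AT2G24270, NP-GAPDH) is a glyceraldehyde-3-phosphate dehydrogenase that forms NADPH without phosphorylating its substrate. ALDH11A3 intensities were 2133, 2268, 1852, 1458, 1567 and 1774 from 24 to 44 h and 2169.9, 2071, 1929, 1621, 1686 and 1889.9 from 48 to 68 h. It was highest at 28 h and lowest at 36 h, over a narrower range than MSRB6, with an amplitude of 0.27 (SE 0.03) and a peak at CT2.16 (SE 0.379 h).

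XTH32 (AT2G36870) belongs to the xyloglucan endotransglucosylase/hydrolases, which cut and rejoin xyloglucan chains of the cell wall. XTH32 intensities were 853, 817, 604, 415, 426 and 523 from 24 to 44 h and 694, 527, 432, 375, 421 and 494 from 48 to 68 h. It was high at 24 and 28 h, and its second-cycle maximum at 48 h stayed below both. The fitted amplitude was 0.39 (SE 0.06) and the peak CT0.996 (SE 0.592 h). F6'H1 (AT3G13610) hydroxylates feruloyl-CoA in the synthesis of the coumarin scopoletin. F6'H1 intensities were 293, 395, 289.7, 258, 303 and 277 from 24 to 44 h and 264, 545, 327, 231, 282 and 355 from 48 to 68 h. A single array, 52 h, stood far above the rest, and apart from it and 28 h the values showed no plain day and night levels. Its peak time accordingly had the largest standard error of the members, 1.499 h at CT3.24, with an amplitude of 0.31 (SE 0.13). No role is given here for CP5 (AT1G64720). CP5 intensities were 5236, 5742, 5201, 4371, 3624 and 4388 from 24 to 44 h and 5122, 5681, 5278, 4517, 4047 and 5031 from 48 to 68 h. They were highest at 28 and 52 h and lowest at 40 and 64 h, with a fitted peak at CT3.75 (SE 0.403 h) and an amplitude of 0.28 (SE 0.03).

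**Figure D3:**
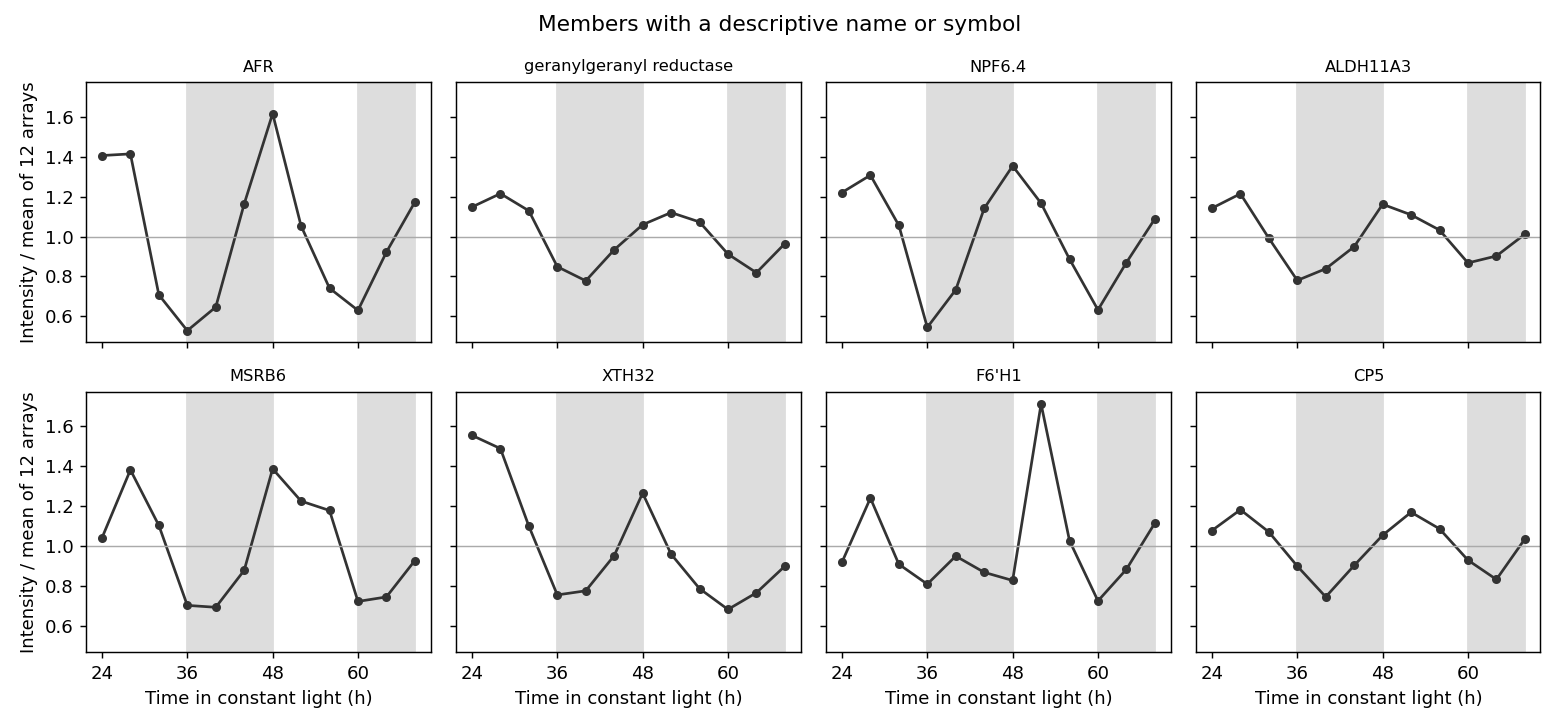
Intensity of the 8 members with a descriptive name or symbol, divided by the gene's mean over the 12 arrays (y axis), against time in constant light (x axis, h), with subjective night in gray. AFR reaches its highest value at 48 h, NPF6.4 has low points at 36 and 60 h, and F6'H1 has 1 high array at 52 h (545 in intensity).

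AT1G62510 had the largest amplitude of all members. Its intensities were 3060.2, 3684, 2452, 786, 928 and 2336 from 24 to 44 h and 4136, 2838, 1789.7, 884, 1505 and 2569 from 48 to 68 h. Day values at 24, 28, 48 and 52 h were all higher than any value at 32, 44, 56, 64 or 68 h, and those at 36, 40 and 60 h were the lowest. Measured highest over lowest was 5.26, the fitted peak-to-trough ratio 4.46 and the log2 amplitude 1.08 (SE 0.14), with a peak at CT1.44 (SE 0.484 h). After NPF6.4, the genes most like it over the 12 arrays were the members AT1G66330 (r 0.974), AT5G50100 (0.957) and AT5G35970 (0.953), and BGLU40 (0.952), which the rule leaves out by symbol.

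A later set peaked near CT3. AT2G41250 had intensities of 642, 850.0, 591, 246, 252 and 331 from 24 to 44 h and 698, 689.9, 563, 327, 319 and 450.4 from 48 to 68 h. It was highest at 28 h and about level at 48 and 52 h, with an amplitude of 0.85 (SE 0.09) at CT3.14 (SE 0.360 h). AT1G69160 gave 256, 333.2, 285, 122, 107 and 177 from 24 to 44 h and 255, 312, 212, 116, 126 and 172 from 48 to 68 h. Both of its cycles were highest at CT4, with an amplitude of 0.77 (SE 0.08) at CT3.13 (SE 0.362 h). AT5G57345 gave 629, 782, 604, 335, 308 and 456 from 24 to 44 h and 641, 723, 555, 339, 363 and 447 from 48 to 68 h. Over the 12 arrays the log2 values of AT5G57345 and AT1G69160 correlated at 0.992, the closest of 1540 pairs of members (median 0.809, lowest 0.0876). The shared peak window favors high correlations between members, so these values are a description. AT5G57345 had the most precise peak time, CT3.02 (SE 0.265 h), with an amplitude of 0.63 (SE 0.05).

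Near the end of the window, AT1G30455 had intensities of 149, 275, 188, 80.5, 67.8 and 102 from 24 to 44 h and 155, 156, 145, 98.3, 50.8 and 108 from 48 to 68 h. Measured highest over lowest, 5.41, was the largest of the members and joined a high array at 28 h to a low one at 64 h. Its amplitude was 0.80 (SE 0.13) at CT3.84 (SE 0.564 h). AT1G73480 gave 287, 469, 415, 196, 169 and 287 from 24 to 44 h and 408, 411, 397, 211, 199 and 271 from 48 to 68 h. It stood near its mean at 24 h but was high at 48 h, and stayed high to 32 and 56 h, with an amplitude of 0.69 (SE 0.10) at CT3.67 (SE 0.492 h). AT1G13650 gave 241, 292, 179, 84.6, 85.2 and 156 from 24 to 44 h and 197, 239.6, 173, 123, 118 and 170.0 from 48 to 68 h. Its cycles correlated most closely of all members (r 0.990), although the low points at 36 and 40 h were deeper than those at 60 and 64 h, with an amplitude of 0.76 (SE 0.10) at CT2.54 (SE 0.453 h).

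Earlier members with a large amplitude included AT5G35970, whose intensities were 820.0, 808, 595, 210.3, 241 and 519.7 from 24 to 44 h and 622, 514, 441, 274, 413 and 586 from 48 to 68 h. Its first-cycle maximum was higher and its minimum lower than those of the second cycle, and the fit over both gave an amplitude of 0.77 (SE 0.16) at CT1.40 (SE 0.783 h). AT1G55960 gave 688, 638, 352, 213, 218 and 346 from 24 to 44 h and 458, 412, 327, 228, 266 and 359.6 from 48 to 68 h. The same held there, with no second-cycle value near those at 24 and 28 h, and the amplitude was 0.67 (SE 0.09) at CT1.51 (SE 0.520 h). AT3G17800 gave 1228, 1199, 778, 453, 594 and 1036 from 24 to 44 h and 1339, 923, 744, 574, 828 and 993 from 48 to 68 h. This gene was highest at 48 h, already high at 44 h, and low at 36 and 60 h, with an amplitude of 0.63 (SE 0.08) at CT0.429 (SE 0.516 h).

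The other members among the 20 largest amplitudes were AT1G66330, AT2G34620, AT3G01060, AT5G50100, AT5G64850, AT5G13770 and AT1G18810. Their amplitudes lay between 0.43 and 0.51 and their peaks between CT0.392 for AT5G13770 and CT2.49 for AT1G18810. AT5G64850 gave the second most precise peak time of the members, CT2.23 (SE 0.284 h), from intensities of 289, 327, 220.4, 168, 158 and 196 from 24 to 44 h and 262, 275, 198, 152, 160.4 and 202 from 48 to 68 h. It was high at 24, 28, 48 and 52 h and low at 36, 40, 60 and 64 h in both cycles. AT2G34620 gave 587, 556, 402, 256, 242 and 319 from 24 to 44 h and 406, 406, 359, 245, 253 and 341 from 48 to 68 h. There the day values of the second cycle were about those of 32 h in the first, while the low values of both cycles were alike.

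AT1G66330 gave 549.6, 613, 455, 248, 293 and 434 from 24 to 44 h and 558, 472, 401, 322, 369.6 and 486 from 48 to 68 h. It was highest at 28 h and lowest at 36 h, with a shallower low point at 60 h (amplitude 0.51, SE 0.08, peak CT1.51). AT5G50100 gave 288, 296, 213, 146, 169 and 221 from 24 to 44 h and 310.1, 259, 181, 144, 196 and 219 from 48 to 68 h. Here the low points at 36 and 60 h were about equal and the highest array was 48 h (amplitude 0.49, SE 0.05, peak CT0.940). AT3G01060 gave 363, 385, 242, 196, 180.3 and 318 from 24 to 44 h and 378, 298, 225, 192, 225 and 269 from 48 to 68 h. Its low values lay at 36 and 40 h and at 60 h, and 44 h was already above its mean (amplitude 0.49, SE 0.06, peak CT0.836).

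AT5G13770 gave 854, 783, 584, 365, 437 and 601 from 24 to 44 h and 693, 587, 467, 438, 546 and 666 from 48 to 68 h. It was highest at 24 h, and in the second cycle 68 h stood close to 48 h (amplitude 0.43, SE 0.08, peak CT0.392, SE 0.731 h). AT1G18810 gave 197, 244, 187, 122, 128 and 177 from 24 to 44 h and 216, 205, 194, 127, 148 and 165 from 48 to 68 h. In the second cycle it changed little from 48 to 56 h before the low array at 60 h (amplitude 0.43, SE 0.06, peak CT2.49, SE 0.492 h).

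**Figure D4:**
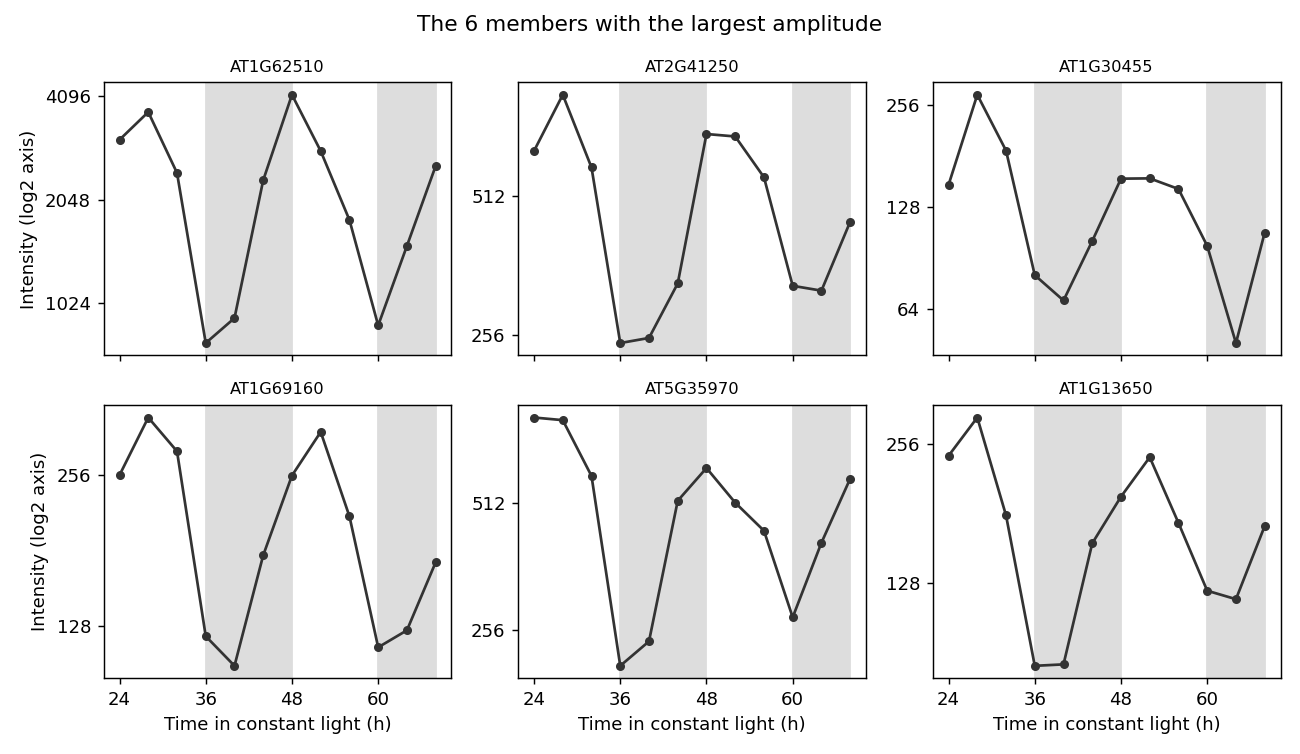
Intensity (y axis, log2 scale) of the 6 members with the largest amplitude against time in constant light (x axis, h), 1 array per point, with subjective night in gray. AT1G62510 is the only panel in which the second cycle has the higher maximum, and AT1G69160 is highest at 28 and 52 h.

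Another 23 members, named here only where singled out after their values were seen, had amplitudes of 0.26 to 0.41, fitted peaks from CT0.194 to CT3.61 and mean intensities of 150.5 to 4829. The genes at the limits of the rule show how continuous the values were there. Just inside the amplitude limit were AT1G24530 (0.253), AT1G14120 (0.255) and AT1G10900 (0.256), and just outside AT2G39210 (0.248), AT5G48540 (0.247) and AT3G11690 (0.246). For the correlation of the cycles the limit fell between AT3G05900 (0.729), AT1G24530 (0.722) and AT1G44000 (0.708) inside and AT5G02230 (0.692), AT5G56850 (0.692) and AT2G40460 (0.687) outside. For mean intensity, AT1G30455 (131.1), AT3G26960 (104.4) and AT3G44450 (100.1) were inside and AT4G27300 (96.4), AT1G32740 (88.5) and AT4G16230 (80.9) outside. At dawn AT5G65380 (CT0.0654), AFR and AT4G24700 (CT0.160) were inside, with AT3G52360 (CT23.98), AT1G68440 (CT23.98) and AT2G34460 (CT23.9) outside by less than the standard errors of the members beside them. At the other end CP5, AT1G30455 and AT1G66760 (CT3.87) were inside and AT4G12980 (CT4.01), AT4G17245 (CT4.01) and AT5G37690 (CT4.20) outside.

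Members at the edges of the window had visibly different courses. AT5G65380, the earliest, had intensities of 752, 789, 584, 550.5, 609 and 744 from 24 to 44 h and 851, 778, 602, 566, 663 and 778 from 48 to 68 h. Before dawn, 44 h was nearly as high as 24 h, and 68 h was higher than 24 h (amplitude 0.30, SE 0.03, peak SE 0.353 h). AT4G24700 gave 233, 235, 150.4, 131, 162 and 188 from 24 to 44 h and 219, 199, 159.8, 155, 171 and 208 from 48 to 68 h. It was low from 32 to 40 h and from 56 to 64 h (amplitude 0.35, SE 0.05). AT1G66760, the latest, gave 405, 539, 418, 351, 359.7 and 371 from 24 to 44 h and 403, 535, 439, 356, 327 and 397 from 48 to 68 h. Both cycles had 1 array, at CT4, well above the others (amplitude 0.29, SE 0.05, peak SE 0.632 h).

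Some members met the rule with less regular courses. AT1G80130 gave 728, 715, 566, 500.3, 544 and 894 from 24 to 44 h and 829.6, 1001, 680.4, 547, 607 and 794 from 48 to 68 h. Its first-cycle maximum fell at 44 h, before dawn, and its second-cycle maximum at 52 h, and the fitted peak was CT0.918 (SE 0.609 h, amplitude 0.40, SE 0.06). AT3G05900 gave 424, 451, 426, 266, 297 and 359 from 24 to 44 h and 344, 471, 458, 343, 316 and 382 from 48 to 68 h. It was high from 24 to 32 h, but in the second cycle 48 h was below its mean and 52 and 56 h were high (amplitude 0.33, SE 0.07, peak CT3.71, SE 0.768 h). AT1G24530 gave 165, 169, 163, 158, 119.5 and 156 from 24 to 44 h and 162, 188, 131, 106, 100.4 and 133 from 48 to 68 h. It stayed high to 36 h in the first cycle, with 40 h its only low array there, whereas the second cycle was low from 56 h (amplitude 0.25, SE 0.08, peak CT2.56, SE 1.07 h).

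Few genes of the listed pathways could be placed beside the members. The annotation used gave no gene for 8794 of 22810 probe sets and several for 503, and none of these probe sets was used. The lists do not hold every gene of these pathways, and AFR and geranylgeranyl reductase, described above, are on none of them. No member was on a list of clock, light signaling, carotenoid, chlorophyll or auxin genes. Listed genes without a named probe set could not become members, so this is not a result about those pathways. No member has another named probe set to compare with. Of 24 listed clock genes only GI had a named probe set, with a fitted peak at CT10.5 (limma, 24-h rhythm, adjusted p = 0.000191). Of 2 listed carotenoid genes with a mean of at least 100, the rhythm test called LYC, a lycopene cyclase (adjusted p = 0.02004), which peaked at CT0.220 with an amplitude of 0.18, below the limit for members. Of 3 such genes of the chlorophyll list it called PORB (adjusted p = 0.00396), which converts protochlorophyllide to chlorophyllide in light and peaked at CT9.33. The auxin list had 16 genes with a named probe set, of which 5 had a mean of at least 100 and were tested, and 2 were called. WES1, a GH3 enzyme that conjugates auxin to amino acids, peaked at CT6.99 (adjusted p = 0.00266), and GH3.17, another enzyme of that family, at CT3.27 with an amplitude of 0.19 (adjusted p = 0.0193). The only gene of the light signaling list with a named probe set, HYH, had a mean below 100 and was not tested.

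Markers of cell types were at hand for few genes, and whole seedlings hold all of these cells, so fewer cells of a type and less RNA per cell cannot be told apart. The leaf mesophyll list had 1 of 9 genes with a named probe set, RCA, which activates the carbon-fixing enzyme Rubisco. RCA ranged from 7618 at 36 h to 12782 at 24 h. Its own rhythm (limma, adjusted p = 0.00179) peaked at CT23.4, before the members' window, and its correlation with the members was not computed. The root list had 3 of 8 such genes, with a summed intensity of 9674 at 64 h to 11548 at 52 h, and the guard cell list 1 of 4, from 115.4 to 157.0. None of these 4 genes was called in the rhythm test. No listed defining marker was at 0 where it was measured, and the part of cell composition in the members' courses was not tested.

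By position, 21 members (37.5%) were on chromosome 1, 7 on chromosome 2, 11 on chromosome 3, 8 on chromosome 4 and 9 on chromosome 5, where 25.8%, 15.3%, 20.4%, 14.6% and 23.9% of the 7996 genes lie. These shares are given as a description, without a test.

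The cycles differed in size and timing. Fitted to each cycle alone, without a linear trend, the median amplitude was 0.42 in the first and 0.32 in the second. The second cycle had the smaller amplitude in 49 of 56 members (87.5%). Of the 361 genes of any phase past the amplitude and correlation limits, the same held for 280 (77.6%). The median difference, second minus first, was -0.13 for the members and -0.09 for the 361 genes. AT5G35970 differed most, with 1.07 in the first cycle and 0.52 in the second, and AT1G24530 most in the other direction, with 0.19 and 0.44. MSRB6 had 0.48 in both. Peaks came earlier in the second cycle in 46 members (82.1%, against 70.6% of the 361 genes), with a median difference of -0.853 h (-0.689 h over the 361 genes). The largest advance was that of AT5G13770, from CT1.51 to CT22.7, and the largest delay that of AT3G05900, from CT2.71 to CT5.15. Over members, the amplitudes of the cycles had a Pearson r of 0.804 and the peak times one of 0.717, described over 56 genes that share the same arrays. In fits with a free period between 19 and 29 h, 46 members took a period below 24 h, 4 one of 24 h and 6 a longer one, with a median of 23.0 h, which was also the median of the 361 genes.

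**Figure D5:**
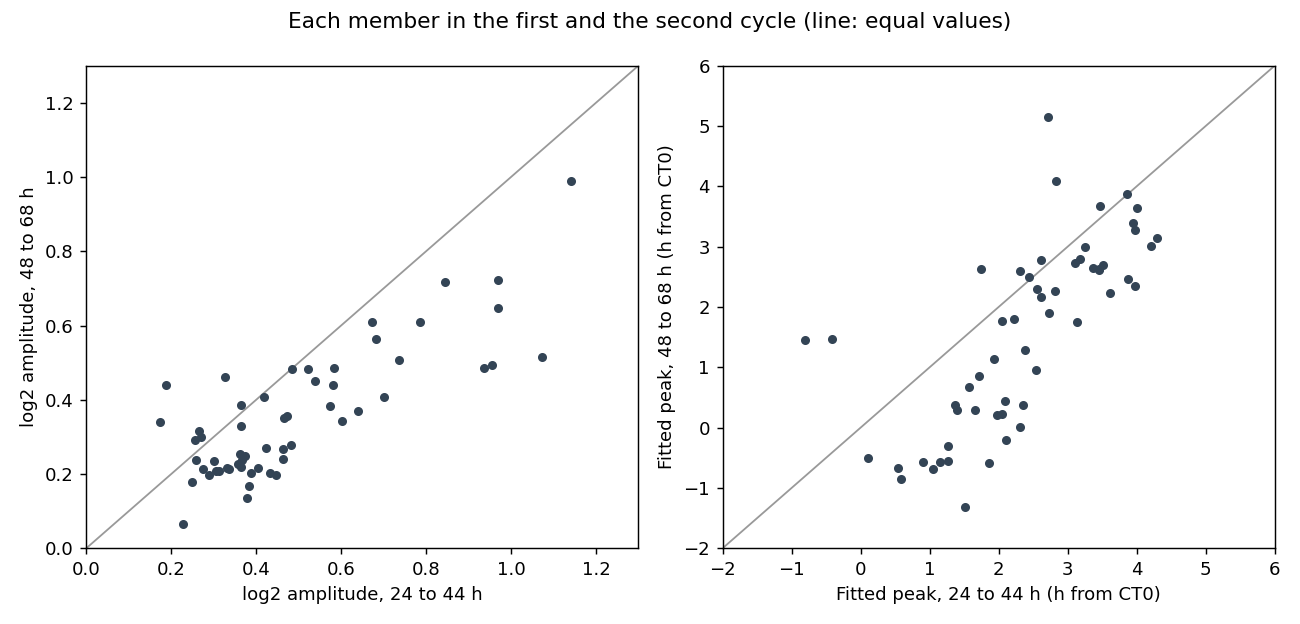
Log2 amplitude (left) and fitted peak in hours from CT0 (right) of each of the 56 members, fitted to 24 to 44 h (x axes) and to 48 to 68 h (y axes) separately, with lines of equal values. In the left panel 49 points lie below the line, and in the right panel 46 do.

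These differences lay at some circadian times more than at others. At CT0, where both arrays were scanned on the same day, the median log2 difference of second minus first cycle was 0.02, with 31 members higher and 25 lower in the second. At CT4 it was -0.19, with 47 members lower at 52 h than at 28 h, and 28 h is the array scanned alone. CT8 differed by -0.07, with 35 members lower. The night values were higher in the second cycle, by a median of 0.13 at CT12 (46 members), 0.15 at CT16 (46 members) and 0.08 at CT20 (43 members), where the first-cycle arrays were scanned on the first day and the second-cycle arrays on the second. Over all 7996 genes the median differences lay between -0.02 and 0.03. Of these genes, 50.7% were lower in the second cycle at CT0, 50.8% at CT4 and 56.1% at CT8. At CT12, CT16 and CT20 the shares lower were 43.8%, 46.9% and 42.9%, beside 10, 10 and 13 of 56 members. Without both CT4 arrays the median amplitudes were 0.41 and 0.30, with 45 members smaller in the second cycle and 44 earlier, and without both CT0 arrays they were 0.45 and 0.31, with 50 smaller and 44 earlier. Scan day and cycle cannot be told apart at CT4 to CT20, since only at CT0 were both arrays scanned on the same day. As departures from the fitted wave, the members had mean log2 residuals of 0.12 at 28 h (50 of 56 positive) and -0.11 at 52 h (8 of 56 positive), and of -0.10 at 36 h (10 positive) and 0.09 at 64 h (47 positive).

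The rule fitted a linear change in level over the 44 h but did not select on its slope. Without this term 49 of the 56 members met the rule, so membership was not independent of it. The linear change was tested with limma over all 7996 genes. It was called higher over time in 1 of 56 members, beside 0.075% of all genes, and lower in 0 members, beside 0.025%. At an unadjusted p under 0.05 there were 3 members higher and 3 lower, beside 7.6% and 5.98% of all genes. The median slope was 0.04 per 24 h on the log2 scale in the members and 0.0053 over all genes, and 37 of 56 members had a positive slope, beside 52.6% of all genes. The gene called was AT1G14120, with intensities of 901, 1038, 931, 786, 696 and 960.2 from 24 to 44 h and 1068, 1155, 1119, 1054, 998.6 and 1184 from 48 to 68 h. Each value of the second cycle was higher than the one 24 h before it. Its slope was 0.34 per 24 h (SE 0.05, adjusted p = 0.0370), a factor of 1.26. Its amplitude of 0.255 came from the fit with this term. Without the term the SE of its peak time was 2.34 h, against 0.554 h with it. The call was lost with scan day as a block (slope 0.26, adjusted p = 0.669) and within the arrays of the first scan day (slope 0.24, adjusted p = 0.851). In both settings 0 of the 7996 genes were called. Scan day largely overlaps with time, since the arrays from 56 to 68 h were all of the second day, so these losses cannot decide about this gene. The call was also lost without the 24, 32, 36, 56, 60, 64 or 68 h array, at adjusted p of 0.0614 to 0.168. Those settings called 0 to 3 of all genes. The ratio of 3-prime to 5-prime signal of the actin control, a sign of RNA quality, was 3.01 to 3.49 from 24 to 48 h and 3.57 to 3.98 from 52 to 68 h, while that of GAPDH was 1.54 to 2.06 and 1.74 to 1.87 and that of ubiquitin 1.34 to 1.40 and 1.35 to 1.41 over the same spans. The part of RNA quality in the slopes was not tested.

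XTH32 had the steepest slope in the other direction, -0.29 per 24 h (SE 0.07, adjusted p = 0.101), and was lower at all 6 circadian times in the second cycle. AT3G19370, at 0.23 (SE 0.06, adjusted p = 0.147), was the other member higher at all 6. Neither passed the test. A 12-h component, which would mark a course that departs from 1 smooth wave a day, was called by limma in 0 members, beside 0% of all genes, with a lowest adjusted p of 0.990 among the members. At an unadjusted p under 0.05 there were 4 members, beside 4.04% of all genes. Its median amplitude was 0.06 in the members and 0.05 over all genes. The rule's correlation of the cycles also favors any repeated shape, so these counts are a description. With no gene called at all, the test does not show that the members followed 1 smooth wave a day. The 24-h rhythm itself, which chose the members, was called in 55 of 56, beside 13.4% of all genes, and nothing is read from that count. The exception was F6'H1 (adjusted p = 0.129).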

How the data were processed

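Affymetrix ATH1 arrays measured transcripts at 12 times in constant light, grouped by the sample labels. Intensity on a linear scale for 22810 probe sets was deposited by the authors in 1 table whose arrays share a common scale. The submitters' processing notes name MAS5 without a version and the methods name dChip and MAS, and the sources used here do not say which program made the table. The array records deposited by the authors hold other information, of which only the scan day was used, as a batch label.

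Gene names came from the platform annotation held by GEO and were updated through the gene table of RefSeq: 13513 had 1 gene symbol, 503 several and 8794 none, and 13484 matched. Of these, 13415 named 1 nuclear gene, 13264 genes in all, and the probe set with the highest mean was used. Intensities below 1 (2 to 12 probe sets per array) were set to 1 before log2. Waves over all 12 arrays were fitted by least squares with a linear trend (8 residual degrees of freedom). Fits to a single cycle had no trend term. The trend, a 12-h component and the 24-h rhythm were tested in limma 3.58.1 (R 4.3.3) with Benjamini-Hochberg adjustment at 0.05 over 7996 genes, after a test on simulated data. Without replicates, each p-value reflects only scatter about the fitted curve.

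The members and lists were chosen with earlier results of these data known. Members were named by rule: the 20 largest amplitudes, those with a symbol, on a list or past the trend threshold, and the 3 genes on either side of each limit of the selection. For AT1G62510, the 5 genes with the highest correlation were also named. AT1G74460, AT1G74470, F6'H1, AT1G80130 and AT3G19370 were named after their values were seen. Alternatives were no trend term, quantile normalization, log2 of intensity plus 32, scan day as a block, other limits, a free period, no probe sets ending in _s_at or _x_at, and each time left out. Other steps ran in Python 3.11.15 with pandas 2.3.3, scipy 1.17.1 and numpy 2.4.6, and figures in matplotlib 3.10.9.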

Additional observations from a re-analysis of the deposited data

How the results depend on the processing

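The rule gave 56 genes as described, and between 38 (amplitude of at least 0.3) and 80 (amplitude of at least 0.2) under the other settings tried. Without 1 array it gave 40 (without 36 h) to 78 (without 52 h). Shared genes numbered 46 of 54 with scan day as a block, 44 of 67 with a free period and 43 of 46 without 28 h.

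The count of members with a linear trend was 1, and 0 at an adjusted p below 0.01, without the 24-h terms (AT1G14120 slope 0.21, adjusted p = 0.4002), with scan day as a block, without the filter on the mean, and on the first scan day's arrays alone, a setting chosen after seeing the data. Over all 7996 genes the count was 8 as described. It was 0 at an adjusted p below 0.01, with scan day as a block and on the first scan day's arrays. Leaving out 1 time gave 0 to 1 members. The second scan day alone, with 4 arrays, could not be fitted. The 12-h count was 0 under every setting tried.

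Of 594 peak times of the 33 members named by rule under the alternatives, 560 stayed within 1 standard error. Of the other 34, 25 came from the free period, so that 25 of the 33 members moved there, by up to 3.29 h. Members named after their values were seen, F6'H1 and AT1G80130 among them, were not included. Over all 56 members the free period gave a median shift of 0.85 h and left 44 with a peak from CT0 to CT4. Fits without 1 array share all other arrays with the main fit, which favors small shifts. Promoter motifs and product classes were not analysed here, since no table used here holds them. No paired analysis was possible because each time has 1 array and the labels give no replicate numbers that pair samples. With 1 array per time, a single unusual array cannot be told from a change in the plants at that time.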
